A study of Arabidopsis thaliana with 18 samples.

Results

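Arabidopsis thaliana seedlings of the mutant xct-1, an allele of XCT, were compared with the wild-type accession Col-0. The comparison is between the 6 libraries titled for these genotypes, 3 of xct-1 and 3 of Col-0, out of 18 libraries of 6 genotypes in the series. The statistical models were fitted to all 18 libraries, which gave the spread between replicates. For every splice junction, usage was taken as the reads on the junction as a percent of all reads of its gene, and gene counts were compared as well. RNA was extracted from whole seedlings. They had been stratified for 3 days and then kept at 22 °C under unbroken light (55 µmol m-2 s-1). Portions of roughly 60 mg were harvested on day 11 at intervals of 2 h for a full 24 h and combined, although a separate label states an age of 10 days. A library is therefore an average over the day and over all organs. By their labels neither group carries a transgene, and no source used here gives the lesion of xct-1. The mutant xct-2, also with 3 libraries, is used for comparison at the end. The replicates are described by the labels as independent biological replicates.

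XCT, XAP5 CIRCADIAN TIMEKEEPER (AT2G21150), encodes a conserved nuclear protein of the XAP5 family, and mutants of the gene are known for altered circadian timing and light responses. Its human relative FAM50A is known as a component of the spliceosome. Pre-mRNA splicing removes each intron in a pair of reactions: the first cuts at the 5′ site and joins the intron's start to the branch point, and the second cuts at the 3′ site and joins the exons. Where several possible 3′ sites lie after one branch point, the spliceosome usually takes the first suitable one, and a downstream choice removes the first bases of the following exon.

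Iso-Seq, from PacBio, sequences long cDNA molecules, so 1 read can show all introns of a transcript. The Col-0 libraries held 913488, 702992 and 852211 gene reads in replicates 1, 2 and 3, and the xct-1 libraries held 818813, 971875 and 798962. Junction reads per gene read were 8.81, 7.93 and 11.5 in the Col-0 libraries. The values of xct-1 were 10.1, 7.05 and 10.8, so the groups overlapped and replicate 2 was lowest in both. Summed levels of 5 leaf marker genes ran from 3407 to 10883 CPM (counts scaled to library size) over the 6 libraries and those of 5 root marker genes from 1552 to 2906. All 5 seed storage marker genes were at 0. No library duplicated another: the chi-square between gene counts of replicates was at least 5.48 per degree of freedom.

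The XCT transcript itself set the xct-1 libraries apart. Of its 11 annotated introns the seventh, chr2:9067108-9067195, had its annotated junction in 26 of 26 XCT reads of Col-0 and in 0 of 89 XCT reads of xct-1. Reads that kept this intron and reads spliced at an unlisted site both lack that junction and cannot be told apart here. The 89 reads comprised 11, 68 and 10 in the 3 libraries, and the 26 reads comprised 8, 16 and 2. Usage was 100% in each Col-0 library and 0% in each xct-1 library, an edgeR quasi-likelihood adjusted p of 1.56e-05. A count of 0 among 89 reads allows for 3 reads at the 95% level, counting error only. The intron was used by 13 of 16 reads in xct-2 and by 0 of 17 reads in the line labelled xct-1 XCT::SpXAP5, which also carries xct-1 by its label. The preceding intron, chr2:9066963-9067045, was used by 63.6%, 82.4% and 50% of XCT reads in xct-1 and by 100% in each Col-0 library, with an edgeR adjusted p of 0.124. The remaining 9 introns were used by 84 to 89 of the 89 reads in xct-1. XCT level was 7.40, 18.7 and 3.35 CPM in Col-0 and 14.1, 50.3 and 16.1 in xct-1. The groups overlapped, and the difference had an unadjusted edgeR p of 0.0308 and did not pass adjustment.

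**Figure D1:**
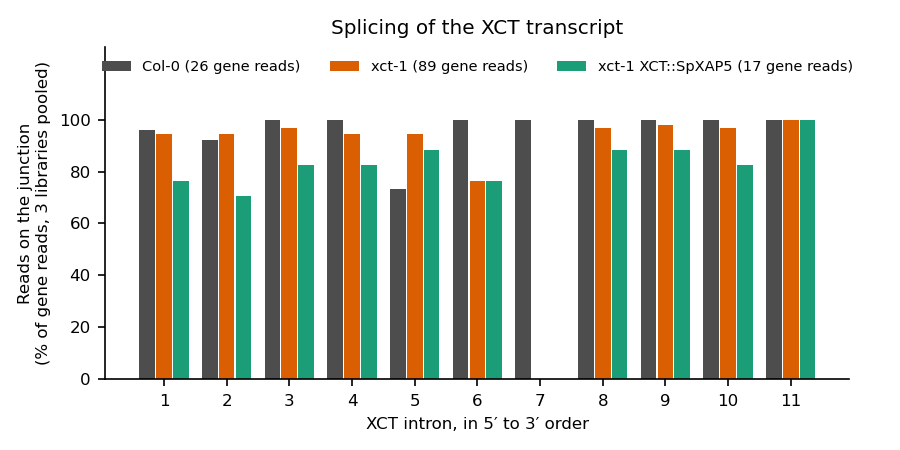
Reads on each of the 11 listed XCT introns as a percent of XCT gene reads, with the 3 libraries of a genotype pooled and introns in 5′ to 3′ order. The seventh intron has no bar in xct-1 (0 of 89 reads) or in xct-1 XCT::SpXAP5 (0 of 17), while Col-0 used it in 26 of 26 reads.

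Across all genes, xct-1 used splice sites that Col-0 rarely or never used. Of 50590 junctions tested in 8509 genes, 546 (1.08%) passed an edgeR adjusted p threshold of 0.05, with 372 (0.735%) used more and 174 (0.344%) used less in xct-1. They lay in 346 genes, 4.07% of the genes tested. Junctions absent from the annotation, called unannotated here, made up 3702 of those tested, and 360 of them (9.72%) were used more against 5 (0.135%) used less. Annotated junctions moved mostly the other way, with 169 of 46888 (0.36%) used less and 12 (0.0256%) used more. The 3 values of xct-1 did not overlap the 3 of Col-0 in 356 of the 360 and in 168 of the 169, against 10.6% of all tested junctions. These junctions were called on the same values, so their lack of overlap is not separate support. Scaling by the gene count as an offset gave 335 used more and 65 used less, and counting only reads at the same splice site gave 577 and 542 among 8040 junctions. Without Col-0 replicate 1 the annotated junctions used less fell from 169 to 101.

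The unannotated junctions used more were nearly all alternative 3′ sites. Of 502 junctions that joined an annotated 5′ site to an unannotated 3′ site 11 to 40 bases downstream of the annotated one, 294 (58.6%) were used more in xct-1 and 0 less. Their median usage over all 502 was 0.261% in Col-0 and 5.51% in xct-1. At 1 to 10 bases downstream 22 of 564 (3.90%) were used more, and beyond 40 bases 32 of 146 (21.9%). The step was abrupt, from 1.88% of sites 1 to 5 bases away and 7.81% at 6 to 10 bases to 55.6% at 11 to 15 bases, with the highest share, 73.6%, at 21 to 25 bases. Upstream 3′ sites seldom moved: 2 of 278 within 10 bases were used more and 3 less, and 5 of 390 farther upstream were used more. Of 1196 unannotated 5′ sites, 0 were called in either direction by edgeR or DESeq2, and 35 had an unadjusted edgeR p under 0.05. The catalogue of unannotated junctions was made by the authors over all libraries, and sites they did not list could not be counted. Reads of the mutants thus helped a site to be listed and tested. A site without Col-0 reads could only rise, here and in the other counts of unannotated sites. This held for 188 of the 348 downstream sites used more and 10 of the 864 not called. Median Col-0 usage at 1 to 10 bases was 3.59%, above that at 11 to 40 bases. The shares by distance therefore cannot separate distance from this selection.

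**Figure D2:**
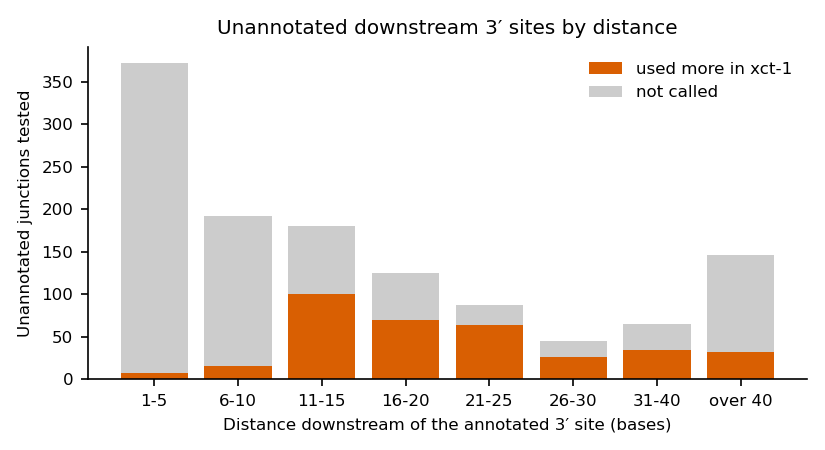
Number of unannotated junctions tested (y axis) by the distance of their 3′ site downstream of the annotated one in bases (x axis), split into those used more in xct-1 and those not called. Sites used more are 7 of 372 at 1 to 5 bases and 100 of 180 at 11 to 15 bases.

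Each called junction was set beside its competitor, the other junction from the same 5′ site with most reads in Col-0. Of 359 unannotated junctions used more that had a competitor, 356 ended downstream of it, by a median of 19 bases with quartiles of 14 and 27. All 9 annotated junctions used more that had a competitor also ended downstream of it, and 123 of 124 annotated junctions used less ended upstream. These counts are in large part the same pairs seen from the other side. Of all 169 annotated junctions used less, 116 shared a site with a called unannotated junction used more. Among the 5 unannotated junctions used less, 4 ended upstream of the competitor. Of the uncalled unannotated junctions with a competitor, 60.4% ended downstream, and of the uncalled annotated ones 43.3%.

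**Figure D3:**
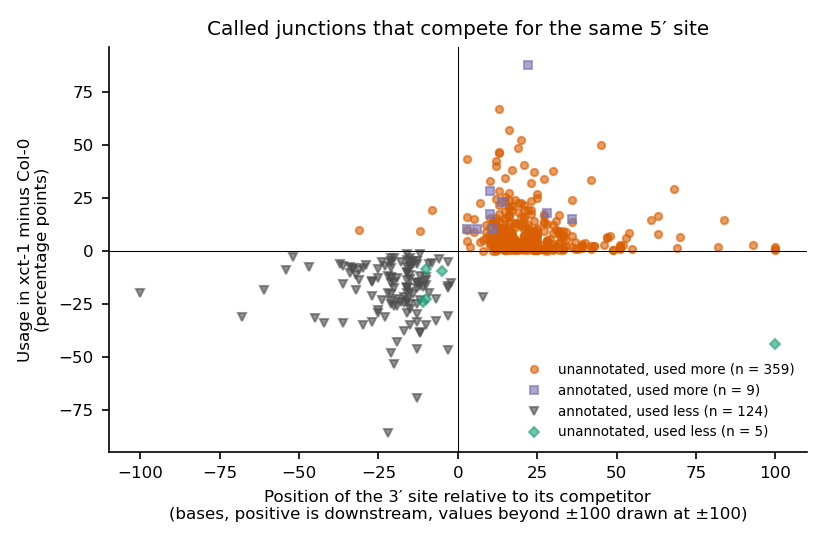
Change in usage in percentage points (xct-1 minus Col-0, mean of 3 libraries each) against the position of the 3′ site relative to its competitor in bases, for every called junction with a competitor. Points lie almost wholly in the upper right and lower left quadrants: 356 of 359 unannotated junctions used more end downstream, and 123 of 124 annotated junctions used less end upstream. Where both junctions of a pair were called, the pair appears in both quadrants.

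The 348 downstream unannotated 3′ sites used more lay in 283 genes, 3 to 148 bases from the annotated site. In Col-0 188 of them had no read at all. Their mean usage in xct-1 had a median of 5.06%, with quartiles of 2.1% and 12.1% and a maximum of 68.0%. Usage reached 10% for 104 sites and 25% for 27, and stayed under 5% for 171. The distance was a multiple of 3 for 150 sites (43.1%), against 28.8% of the 864 downstream sites not called. Such a distance leaves the reading frame in step where both sites lie in coding sequence. These sets differ in distance: 7 of the sites used more and 365 of those not called lay 1 to 5 bases away. The part of distance in the shares was not tested. The annotated introns had a median length of 93.5 bases, against 104 bases for the sites not called. The rise of the downstream site and the fall of its competitor nearly balanced: the medians over the 348 pairs were 5.03 points and -5.33 points, and the median of the sum was -0.197 points. The competitor's mean usage was lower in xct-1 in 325 of the 348 pairs.

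Pooled over sites, the switch could be measured once per library. Sites 11 to 40 bases downstream took 1.81%, 1.77% and 1.76% of the reads from their shared 5′ sites in Col-0. They took 4.20%, 4.72% and 4.31% in xct-1, so every xct-1 library was above every Col-0 library. The means were 1.78% ± 0.0221 and 4.41% ± 0.274 (SD, n = 3 each), a difference of 2.63 points with an exact two-sided permutation p of 0.1, the smallest that 3 against 3 can give. Sites 1 to 10 bases downstream took 2.62% ± 0.0501 in Col-0 and 3.24% ± 0.0193 in xct-1, again without overlap and with an exact p of 0.1. Sites 1 to 40 bases upstream took 12.1% ± 0.943 in Col-0 and 12% ± 1.08 in xct-1, an exact permutation p of 1. All unannotated junctions together held 0.900%, 0.807% and 1.17% of junction reads in Col-0 and 1.19%, 0.795% and 1.28% in xct-1. These overlapped, with an exact permutation p of 0.5. The sites in these classes were tested one by one on the same libraries, so the pooled shares are not independent of the calls above.

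**Figure D4:**
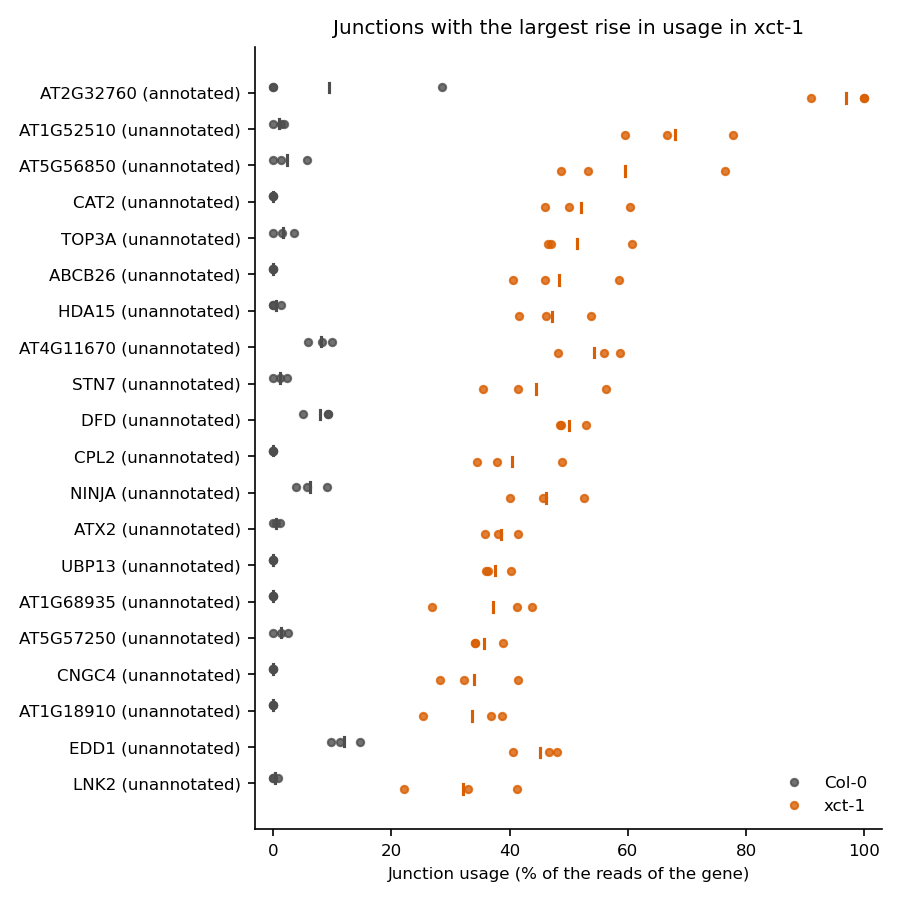
Usage in each of the 3 Col-0 and 3 xct-1 libraries (percent of the gene's reads, x axis) for the 20 junctions with the largest rise, 1 per gene. Dots are libraries and vertical bars are group means, and in all 20 genes the 3 xct-1 libraries lie above the 3 Col-0 libraries. The junctions were picked as called and for their large rise, so this is not separate support.

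In several genes the downstream site became the main one. The largest unannotated rise was in AT1G52510, at an intron of the minus strand, chr1:19564083-19564194. The site 13 bases downstream of the annotated one was used by 1.82%, 1.39% and 0% of reads in Col-0 and by 66.7%, 59.5% and 77.8% in xct-1, where the gene had 15, 42 and 9 reads. The log2 odds ratio of usage was 6.85 ± 0.77 (SE), with an edgeR adjusted p of 9.71e-06. The annotated site fell from 92.9% to 23.8%, with an edgeR adjusted p of 0.000128. AT5G56850 rose from 1.32%, 5.66% and 0% to 48.7%, 76.5% and 53.3% at a site 16 bases downstream. Its annotated site was at only 35.6% in Col-0 and 13.6% in xct-1, and was not called (edgeR adjusted p of 0.532).

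CAT2, a cationic amino acid transporter, used the site 20 bases downstream at chr1:21466418-21466511 in 0 of 326 reads of Col-0. In xct-1 it was used by 45.9%, 50% and 60.4% of reads, at least 55.6-fold higher, taking a floor of 3 reads over the Col-0 group. The edgeR adjusted p was 2.23e-06, and the annotated site fell from 98.3% to 45.1%. The ABC transporter gene ABCB26 gave 0 of 476 reads in Col-0 and 40.5%, 46% and 58.5% in xct-1 at a site 19 bases downstream, chr1:26623857-26624028, at least 75.3-fold higher. CPL2, a phosphatase of the RNA polymerase C-terminal domain, gave 0 of 294 reads against 34.5%, 37.8% and 48.8% at 21 bases. TOP3A, a topoisomerase, used a site 45 bases downstream in 3.51%, 0% and 1.45% of Col-0 reads and in 60.8%, 47.1% and 46.5% of xct-1 reads. None of these groups overlapped, but the junctions were picked for their large rise.

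Regulators of chromatin and signalling were among the 20. HDA15, a histone deacetylase, went from 1.37%, 0% and 0% to 41.7%, 53.8% and 46.2% at a site 13 bases downstream, and ATX2, a trithorax-family histone methyltransferase, from 1.11%, 0% and 0.452% to 41.5%, 35.9% and 38% at 17 bases. NINJA, an adaptor of jasmonate repressors, rose from 6.25% ± 2.63 to 46.1% ± 6.33, and CNGC4, a cyclic nucleotide-gated channel, from 0 of 148 reads to 34.0% ± 6.72 (SD, n = 3). The chloroplast kinase gene STN7, which acts in state transitions of photosynthesis, was exceptional in distance: the site only 3 bases downstream took 2.29%, 1.11% and 0% in Col-0 and 35.6%, 41.5% and 56.2% in xct-1. EDD1, a glycyl-tRNA synthetase, already used the downstream site at 9.81%, 11.4% and 14.7% in Col-0 and reached 40.5%, 48% and 46.7% in xct-1. The edgeR adjusted p of these 6 ran from 3.61e-08 in ATX2 to 8.88e-05 in CNGC4. AT4G11670, AT5G57250, AT1G18910, AT1G68935 and DFD, a folylpolyglutamate synthetase gene, had mean rises of 33.6 to 46.2 points. The other members of the 20, AT2G32760, UBP13 and LNK2, are described with the annotated sites and the clock genes.

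Several genes carried more than 1 such site. Among genes with a called unannotated 3′ site used more, 244 had 1, 31 had 2, 10 had 3, 3 had 4 and 1 had 7. GLU1, the ferredoxin-dependent glutamate synthase and one of the most read genes, with 2233 to 11371 reads per library, had the 7. These were 8 to 28 bases downstream and none exceeded a mean of 1.26% in xct-1. AT1G02080 had 4 sites 15 to 48 bases downstream with mean usages of 5.04% to 21.6% in xct-1. ATX2 also had 4, from 2.63% to 38.5%. AT4G38120 tied with them, with 4 sites at 10.7% to 20.9%. The part of read depth in the number of sites per gene was not tested.

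Of the 12 annotated junctions used more, 9 had a competitor and ended downstream of it. The other 3, in PRR7, SRS2 and EDM2, had no overlapping junction in the list. AT2G32760 had an annotated pair of 3′ sites 22 bases apart, and the downstream one was used by 28.6%, 0% and 0% of reads in Col-0 and 100%, 90.9% and 100% in xct-1. The gene had only 14 reads in Col-0 and 26 in xct-1. The edgeR adjusted p was 0.00786, and it was 0.0824 without Col-0 replicate 2 and 0.0829 without xct-1 replicate 1. For the upstream site of the pair, which fell from 88.9% to 3.03%, the adjusted p of 0.0048 became 0.104 without Col-0 replicate 1 and 0.0561 without xct-1 replicate 1. In AT5G11580 the annotated site rose from 57.8%, 56.8% and 57.6% to 85.2%, 86.1% and 86.4%, and an unannotated site 10 bases upstream of it fell from 23.5%, 27.3% and 27.3% to 6.56%, 1.90% and 1.52%. KINESIN-13A, a microtubule motor gene, shifted to an annotated site 14 bases downstream, from 9.78% ± 1.08 to 33.1% ± 2.88, and D2HGDH, a hydroxyglutarate dehydrogenase gene, to one 28 bases downstream, from 1.25% ± 1.1 to 19.4% ± 4.23. The edgeR adjusted p of these 2 were 0.000889 and 0.0048.

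The unannotated sites used less mirrored this. Tudor1, a Tudor-SN RNA-binding protein, used a site 5 bases upstream of the annotated one at 14%, 16% and 11.6% in Col-0 and 3.35%, 3.95% and 6.02% in xct-1, with an edgeR adjusted p of 0.00288 that was 0.133 when the 6 libraries were fitted alone. CTC1, a telomere maintenance protein, used a site 10 bases upstream at 10.6% ± 2.30 and 1.92% ± 1.70. Its adjusted p of 0.0361 exceeded the threshold when any library other than Col-0 replicate 2 was left out, reaching 0.168 without Col-0 replicate 1. It was 0.257 by DESeq2. AT5G55840 fell from 30.5% ± 12.9 to 6.49% ± 2.13 with an adjusted p of 0.0288, which was 0.258 without Col-0 replicate 1. It was 0.0939, 0.099 and 0.132 without xct-1 replicates 1, 2 and 3. AT1G68935 differed in kind: its falling junction, 90.9% ± 7.95 to 47.0% ± 5.76, is an unlisted pairing of annotated sites, and the site 24 bases downstream of it rose from 0 of 118 reads to 37.2% ± 9.13.

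A smaller group of annotated junctions was used less without a replacement in the list. Of the 169, 53 shared no site with a called unannotated junction, and for 44 of these no overlapping junction was listed. In AT4G23050 the intron chr4:12081944-12082070 was used by 90.6%, 95.3% and 90.0% of reads in Col-0 and 41.5%, 37.7% and 39.2% in xct-1, with an edgeR adjusted p of 1.82e-06. PRMT4B, a protein arginine methyltransferase gene, fell from 100%, 93.1% and 100% to 54.5%, 48.4% and 40% at chr3:2188236-2188497, with an edgeR adjusted p of 0.0026. It was not called with the gene count as an offset (0.131). AT3G52030 fell from 100%, 82.4% and 71.4% to 25%, 11.1% and 0% on 35 and 23 reads. Its edgeR adjusted p of 0.0182 became 0.0929 and 0.0523 without Col-0 replicates 1 and 2, and 0.552 without xct-1 replicate 2. A further intron of AT1G52510, chr1:19564837-19564981, fell from 78.2%, 81.9% and 65.2% to 33.3%, 42.9% and 11.1%, with an edgeR adjusted p of 0.0147. That p was 0.0783 and 0.109 without Col-0 replicates 1 and 2, and 0.0612 and 0.0649 without xct-1 replicates 1 and 3. An exon bin inside this intron, chr1:19564920-19564981, was covered by 16.4%, 12.5% and 34.8% of reads in Col-0 and by 66.7%, 57.1% and 66.7% in xct-1, with an edgeR adjusted p of 0.673.

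Of the 26 clock genes listed, 23 had a tested junction and 6 had a called one, against 4.07% of all genes. By junction 8 of 191 were called, against 1.08% of all, and 9.42% had an unadjusted edgeR p under 0.05, against 6.1% of all. The part of read depth and of junctions per gene in the shares of this list and those below was not tested. UBP13, a deubiquitinase that acts on clock period, was the largest: the site 30 bases downstream at chr3:3768304-3768410 had 0 of 668 reads in Col-0 and 40.2%, 35.9% and 36.3% in xct-1. This was at least 83.4-fold higher, with an edgeR adjusted p of 1.46e-07, and the annotated site fell from 94.0% to 59.1%. LNK2, a transcriptional coactivator of the clock, used a site 23 bases downstream in 0%, 0.901% and 0% of reads in Col-0 and 22.2%, 41.3% and 33.0% in xct-1, with an adjusted p of 2.52e-06. The LNK2 annotated site was at 26.3% in Col-0 and 13.7% in xct-1 and was not called (edgeR adjusted p of 0.567). TOC1, an evening repressor of the clock, used a site 61 bases downstream in 0%, 0% and 0.820% of Col-0 reads and 15.4%, 18% and 11.5% of xct-1 reads, with an adjusted p of 0.000179. The TOC1 annotated site was at 85.8%, 90.5% and 84.4% in Col-0 and 69.1%, 70.8% and 66.3% in xct-1. Its adjusted p of 0.0397 lay between 0.0616 without Col-0 replicate 3 and 0.175 without xct-1 replicate 3, and so missed the threshold when any 1 library was left out. It was 0.0561 by DESeq2. TIC, TIME FOR COFFEE, a nuclear clock regulator with 5792 reads in Col-0, rose from 0.25%, 0% and 0.429% to 10.4%, 12.1% and 11.8% at a site 18 bases downstream, with an edgeR adjusted p of 5.37e-09. LHY, a morning transcription factor, rose from 0 of 473 reads to 6.25%, 6.43% and 6.17% at a site 53 bases downstream, at least 9.95-fold. PRR7, a pseudo-response regulator, differed: the annotated junction chr5:640756-640888 was used more, with no competing 3′ site in the list. Its usage went from 60.0%, 58.7% and 57.5% to 77.8%, 88.3% and 81.5%, with an edgeR adjusted p of 0.01. This junction was not called when the 6 libraries were fitted alone (0.199).

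**Figure D5:**
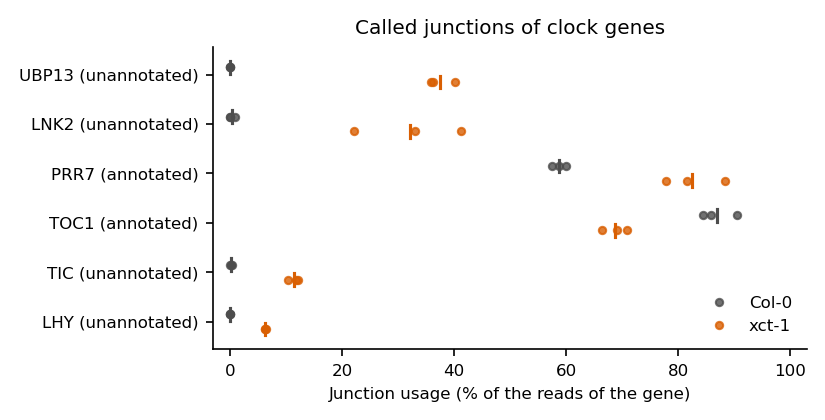
Usage in each of the 6 libraries (percent of the gene's reads) for the called junction with the largest change in each of the 6 clock genes. Groups do not overlap in any of the 6, from UBP13 (0 in every Col-0 library, 35.9% to 40.2% in xct-1) to LHY (0 and 6.17% to 6.43%). The junctions were picked as called and for their large change, so this is not separate support.

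Light signalling, small RNA and decay genes also carried calls. Of 21 light signalling genes tested, 3 had a call, against 4.07% of all genes. By junction 5 of 206 were called, against 1.08% of all. An unadjusted edgeR p under 0.05 was found for 6.8% of them, against 6.1% of all. The blue light receptors PHOT1 and PHOT2 used sites 19 and 30 bases downstream at means of 2.05% ± 0.453 and 1.06% ± 0.513 in xct-1, against 3 of 4243 and 0 of 2502 reads in Col-0. SPA1, a repressor of light signalling, reached 0.937% ± 0.630 at a site 148 bases downstream, and its edgeR adjusted p of 0.00348 became 0.107 without Col-0 replicate 3. Of 12 small RNA biogenesis genes, 3 had a call. By junction 3 of 160 were called, and 8.12% had an unadjusted edgeR p under 0.05. DCL4, which makes trans-acting small RNAs, rose from 0%, 2.13% and 0% to 18.1%, 20.5% and 16.6% at 23 bases, DCL1, the microRNA-producing enzyme, from 0 of 276 reads to 7.58% ± 1.04 at 15 bases, and AGO1 from 0 of 3217 reads to 0.697% ± 0.142. In the nonsense-mediated decay list, UPF1, an RNA helicase of that pathway, rose from 0 of 1259 reads to 3.58% ± 0.991 at a site 32 bases downstream. The edgeR adjusted p of these named genes ran from 8.28e-06 in PHOT1 to 0.00348 in SPA1.

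Genes of the splicing machinery were taken as 5 lists, beside the 4.07% of all genes with a call. By edgeR and by DESeq2, 0 junctions were called in the 8 tested genes for 3′ splice site recognition, the 7 of the MOS4-associated complex and the 7 of the second splicing step. Of their 55, 30 and 71 tested junctions, 1, 0 and 0 had an unadjusted edgeR p under 0.05, against 6.1% of all tested junctions. Among 8 clock-period splicing factors only XCT had a junction called by edgeR, and 3 of their 47 junctions had an unadjusted p under 0.05. Of 17 SR protein genes 1 had a call by edgeR, and 6 of their 78 junctions had an unadjusted p under 0.05. That gene, RS41, used an annotated site at 20.0%, 20.3% and 33.3% in Col-0 and 5.71%, 6.35% and 8.82% in xct-1. The competing annotated site lies 3 bases downstream. The RS41 adjusted p of 0.0313 ran from 0.053 without Col-0 replicate 2 to 0.324 without xct-1 replicate 2, so it missed the threshold when any 1 library was left out. It was 0.212 by DESeq2. Members of each list share libraries, and the lists differ in how deeply their genes were read.

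Gene levels gave no call. Of 10810 genes tested with edgeR, 0 (0%) passed adjustment and 154 (1.42%) had an unadjusted p under 0.05, and DESeq2 gave 0 and 147. By unadjusted p the first were BAM6, a beta-amylase gene, AT3G01345, AT4G23050, AT1G52510, NUDT21 and CAF1a, a deadenylase gene. AT4G23050, whose intron is described above, had 49.0, 50.4 and 67.0 CPM in Col-0 and 158, 90.2 and 156 in xct-1, with an unadjusted edgeR p of 0.000948. AT1G52510 had 50.9, 84.3 and 38.5 against 19.2, 31.1 and 14.4. These groups did not overlap, but the genes were picked for their small p, so this is not separate support. AT3G01345 was at 0 in all Col-0 libraries and at 16.7, 42.9 and 0 in xct-1, so the groups met at 0. It was called, with an edgeR adjusted p of 0.000116, when genes of low count were not filtered out. With junction reads per gene read as a covariate 9 genes were called, 6 higher and 3 lower. The higher ones were AT4G23050, AT3G01345, NUDT21, AT1G14250, AT1G35710 and AT2G15042, and the lower ones AT1G52510, EDD1 and EMB3144.

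Genes with a called unannotated junction used more, 292 of 8509 (3.43%), had a median log2 level change of -0.08, against -0.02 over all genes tested. For the 28 with usage of at least 25% the median was -0.25, and 82.1% of them were below 0, against 52.3% of all genes. By edgeR 0 were called, and 5 of the 28 had an unadjusted p under 0.05. With junction reads per gene read as a covariate, AT1G52510 and EDD1 of these 28 were called lower, at log2 changes of -1.43 and -1.01 and edgeR adjusted p of 0.0132 and 0.0223. The clock list summed to 3573, 2549 and 10294 CPM in Col-0 and 6069, 2020 and 8060 in xct-1, in the same order as junction reads per gene read. Fewer cells of a type and less RNA per cell cannot be told apart in such pooled seedlings.

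Exon bins gave no call either. Of 31056 bins tested with edgeR 0 (0%) passed and 754 (2.43%) had an unadjusted p under 0.05. The bins with the smallest p included the 22 bases between the sites of AT2G32760, chr2:13892578-13892599, covered by 90.5% of reads in Col-0 and 3.03% in xct-1, and a bin of D2HGDH, chr4:17200622-17200649, at 98.8% and 80%. Both had an edgeR adjusted p of 0.673. A bin of VAD1, a gene of vascular cell death control, stood at 97.9% and 83.8%, and one of AT5G56730 at 100% and 94.4%. With junction reads per gene read as a covariate 2 bins were called, in AT1G52510 and in BRCA2(IV).

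The authors' deposited table for the same pair of genotypes held 548 called junctions among the 48787 that both tests covered, against 517 called here. In all, 469 were called in both, 90.7% of the calls here and 85.6% of those in the authors' deposited table, and all 469 had the same sign.

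The same junctions were set beside xct-2. Median usage of the 360 unannotated junctions that rose in xct-1 was 0% in Col-0, 5.09% in xct-1 and 10.9% in xct-2. The mean was higher in xct-2 for 348 of the 360. In the direct edgeR test of xct-2 against xct-1, 50 of 50590 junctions (0.0988%) passed, in 32 genes, and 27 of the 360 were among them. Of the 50, 48 were farther from Col-0 in xct-2, and 4 lay in XCT. Pooled over sites 11 to 40 bases downstream, xct-2 took 7.53%, 8.38% and 7.39%, all above the xct-1 libraries. VCL1, VACUOLELESS1, went from 0 of 279 reads in Col-0 to 13.9% ± 0.933 in xct-1 and 51.5% ± 4.79 in xct-2 at a site 36 bases downstream. LHY went from 6.28% ± 0.131 in xct-1 to 37.1% ± 5.34 in xct-2, with an edgeR adjusted p of 0.00188. EMB1030, an alanyl-tRNA synthetase gene, had an annotated intron at 85.2% ± 2.95 in Col-0. The same intron stood at 84.2% ± 0.601 in xct-1 and at 38.7% ± 7.87 in xct-2, with an adjusted p of 0.00146 between the mutants. CRK18, a receptor-like kinase gene, stood at 87.9%, 53.9% and 15.6%, and AT1G20720 at 97.4%, 84.0% and 38.6%.

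The number of junctions that separate the mutants depended on the libraries. It was 12 and 21 without xct-1 replicates 1 and 3, 46 without xct-1 replicate 2. Leaving out xct-2 replicates 1, 2 and 3 in turn gave 18, 27 and 20. With the 6 libraries of the mutants alone it was 2. The adjusted p of VCL1 was 0.0114 and lost the threshold without xct-1 replicate 1 (0.119) or 3 (0.0578) and without xct-2 replicate 1 (0.0887) or 2 (0.0533). That of AT1G20720 was 0.0156 and lost it without replicate 1 or 3 of either mutant, reaching 0.118 and 0.114 for xct-1. For xct-2 the values were 0.122 and 0.143. That of CRK18 was 0.0336 and lay between 0.0946 without xct-1 replicate 2 and 0.219 without xct-2 replicate 3. That of EMB1030 stayed at or under 0.0148 whichever of the 6 was left out, but was 0.0655 with the 6 libraries of the mutants alone. In XCT itself the third intron, chr2:9066049-9066135, was used by 86 of 89 reads in xct-1 and by 0 of 16 in xct-2. No xct-2 read covered the exon bins before this intron, while the bin after it had 4, 8 and 4 reads. The xct-2 reads therefore could not show how this intron is spliced.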

How the data were processed

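The authors deposited raw whole-number counts per library for genes, exon bins, annotated junctions and unannotated junctions, per the file headers. Per the submitters' processing notes the build was TAIR10 and the aligner minimap2 2.17, and no source used here gives other steps. The authors' deposited table for this pair holds a p-value per feature, an adjusted p-value and a log2 ratio, per the file headers. Coordinates are the authors', written from 1. Gene symbols came from a RefSeq table of TAIR10.1, which held 31527 of 32209 single genes. Splice-site letters are not shown, since no genome was used. The 227 loci of more than 1 gene were left out of the junction and bin tests.

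For each junction, reads on it and the gene's other reads entered an edgeR quasi-likelihood model (version 4.0.16, R 4.3.3) of all 18 libraries, with library terms and 1 usage coefficient for each genotype. Junctions needed 20 reads on each side. Junction counts exceeded the gene count in 1.03% of values, by a median of 2 reads, and the other reads were then set to 0. The log2 change is a log2 odds ratio, and its SE is the change over the square root of F. Gene counts were tested by edgeR after filtering and normalisation, and p-values were adjusted over all features by Benjamini-Hochberg. DESeq2 1.42.0 was an alternative. Both tests were also checked on simulated data. There the junction test recovered 44% of the junctions set to differ by a log2 of 2 and 92% of those set at 4. The gene test recovered 88% of the genes set to differ by a log2 of 2, and 6.88% of its calls were false. Recovery of smaller differences was not tested.

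The genes named are the 20 largest called rises, 1 per gene; the 6 largest falls without a called unannotated partner; the 5 largest annotated rises and unannotated falls; the called junctions of listed genes, of which 1 is not reported here; the 5 bins and 6 genes with the smallest p; XCT; the 5 largest differences from xct-2; and the 3 genes with most called sites, to which a gene tied for the last place was added after its values were seen. The members, lists and tests were chosen with earlier results of these data known. Limits from a count of 0 cover counting error only.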

Additional observations from a re-analysis of the deposited data

How the results depend on the processing

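Of the 47 named junctions of the xct-1 comparison, recomputed under up to 14 alternatives, all kept their direction, and in 58 of 644 recomputed values a call was lost. Losses not given above include the rises of AT5G11580 and PHOT2 with the gene-count offset (edgeR adjusted p of 0.0567 and 0.0672). They include the falls of AT1G68935 (0.0709), AT3G52030 (0.0994), AT1G52510 (0.148) and AT5G55840 (0.193) with the 6 libraries alone. All 546 calls also kept their direction wherever they were tested. The alternatives reuse the same libraries and the junctions were picked as called, so a kept direction is not separate support. Fitting the 6 libraries alone gave 280 calls, 216 unannotated junctions used more and 59 annotated ones used less, and 2 between the mutants, with fewer junctions tested. With the gene count as an offset, 53 annotated junctions were used less. With reads at the same site as the denominator there were 1119 calls among 8040 junctions, 498 of them annotated and used less, and 93.5% of the junctions used more ended downstream of their competitor. With junction reads per gene read as a covariate, 283 annotated junctions were used less, 9 genes and 2 exon bins were called, and 1 gene was called without the filter; the cause was not tested. Leaving out 1 library gave 405 to 501 calls, 259 to 345 unannotated junctions used more, 101 to 155 annotated ones used less, and 12 to 46 between the mutants. It gave 0 genes and 0 bins each time.

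Replicate numbers matched for replicates 2 and 3 of Col-0 and xct-1 but not for replicate 1. Deviations from the group mean correlated at r = -0.134, 0.796 and 0.740 for gene levels of same-numbered Col-0 and xct-1 libraries. For junction usage the values were -0.00787, 0.326 and 0.331. Col-0 replicate 1 and xct-1 replicate 1 correlated better with another number. Between xct-1 and xct-2 the same-numbered gene levels gave 0.435, 0.889 and 0.669. Deviations within a group sum to 0, so these values depend on one another. Whether the number marks a shared batch was not tested. With the number as a replicate block there were 521 calls, 51 between the mutants, 0 genes and 0 bins, and the falls in TOC1, RS41 and CTC1 were not called (edgeR adjusted p of 0.0623, 0.0614 and 0.0501). The share of reads on unannotated junctions differed by 0.130 points in all and in the block, and by 0.0350 to 0.276 points with 1 library left out. Chosen after seeing the data, sites 1 to 40 bases upstream gave -0.0912 points (exact permutation p of 1).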
